A study of Homo sapiens with 27 samples.

Results

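The 33 genes described here encode proteins that build cholesterol and fatty acids or move sterols within and out of the cell. They were chosen by symbol and comprise 7 enzymes of the mevalonate steps, 11 enzymes from squalene to cholesterol, 4 regulators and sterol carriers, 8 enzymes that make, elongate or desaturate fatty acids, and 3 targets of the liver X receptors (LXRs). All 33 were found in each of the 3 count tables, which hold 24379 gene symbols for 22Rv1, 23532 for DU145 and 23462 for PC3, with 20089 symbols in common. RNA was sequenced in bulk from these 3 established human prostate cancer lines, of which 22Rv1 expresses the androgen receptor while DU145 and PC3 grow without androgen. Cells with a control guide RNA (gRNA 1, genotype labelled WT) gave 3 libraries per line. A further 6 libraries per line were made from 2 populations labelled RIPK2 knockout, 3 from each. These carried RIPK2 gRNA 1 and RIPK2 gRNA 10 in 22Rv1, and RIPK2 gRNA 2 and RIPK2 gRNA 10 in DU145 and PC3. RIPK2 is a kinase that relays signals from the NOD receptors. The comparisons ask how each guide population differs from the control population of its line. Whether a population is 1 clone or a pool, and whether its 3 libraries came from separate cultures, is not given in the sources used here. The p-values therefore measure only the spread between these libraries, which may be technical.

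Sterol regulatory element binding proteins (SREBPs), encoded by SREBF1 and SREBF2, are held in the endoplasmic reticulum by INSIG proteins when sterols are plentiful. When sterols run low the carrier SCAP brings them to the Golgi, where they are cut, and the released part enters the nucleus and turns on genes of cholesterol and fatty acid synthesis, INSIG1 and STARD4 among them. LXRs respond to oxidised sterols by raising the sterol exporters ABCA1 and ABCG1 and the ubiquitin ligase MYLIP, and they also raise SREBF1.

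RIPK2 mRNA fell in 22Rv1 by 0.94 with gRNA 1 and by 1.63 with gRNA 10, and in PC3 by 1.55 with gRNA 2 and by 1.15 with gRNA 10, all on the log2 scale. In DU145 it fell by 1.84 with gRNA 2, while with gRNA 10 the log2 difference of -0.29 did not pass (edgeR quasi-likelihood test, adjusted p 0.0614). Library totals ran from 17958558 to 20650819 counts. The variation between libraries of a group beyond counting error, as the common coefficient of edgeR, was smallest in PC3 (3.55%). It was larger in DU145 (12.3%) and 22Rv1 (14.2%), so smaller differences passed the test in PC3. All 5 epithelial markers (EPCAM, KRT8, KRT18, KRT19 and CDH1) were above 1 CPM (counts scaled by library size) in every group. Their sum was higher with the guides than in the control: 827 to 883 CPM against 1004 to 1078 CPM in 22Rv1, 892 to 944 CPM against 1539 to 3063 CPM in DU145, and 1213 to 1271 CPM against 1394 to 2556 CPM in PC3. Androgen response markers summed to 1203 to 1278 CPM in the 22Rv1 control, 766 to 799.8 CPM with gRNA 1 and 1094 to 1111 CPM with gRNA 10, and in PC3 went from 17.5 to 19.2 CPM in the control to 34.6 to 37.2 CPM with gRNA 2 and 148 to 159 CPM with gRNA 10. The DU145 sums were 17.3 to 19.2 CPM in the control, 25.7 to 26.6 CPM with gRNA 2 and 30.3 to 30.7 CPM with gRNA 10. Leukocyte markers summed to at most 3.03 CPM and endothelial markers to at most 1.65 CPM in 22Rv1 and DU145. In PC3 the endothelial sum was 1.80 to 2.24 CPM in the control, 8.75 to 9.81 CPM with gRNA 2 and 6.0 to 7.85 CPM with gRNA 10. Only 1 of the 3 endothelial markers was above 1 CPM in each PC3 group. Fibroblast markers summed to 9.14 to 11.5 CPM in the 22Rv1 control, 12.7 to 31.0 CPM with gRNA 1 and 26.3 to 28.1 CPM with gRNA 10. In DU145 the fibroblast sums were 14.3 to 15.4 CPM in the control, 5.81 to 12.5 CPM with gRNA 2 and 24.7 to 31.1 CPM with gRNA 10. For PC3 they were 64.2 to 66.2 CPM, 55.4 to 66.2 CPM and 70.1 to 73.9 CPM in the same order. The part of these shifts in the results was not tested. Replicate 3 of 22Rv1 gRNA 1 and replicate 3 of DU145 gRNA 2 stood apart from the other libraries of their groups. The former held 16.7% of its counts in mitochondrial genes, against 2.10% and 1.92% in replicates 1 and 2, and the latter held 2.89%, against 1.75% and 2.12%. Results that rest on either library are given with and without it.

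The windows before the start sites of 5 of the genes are shown as examples: a regulator that carries the SREBP motif (SREBF2), a pair of regulators and an enzyme that fell with both guides in PC3 (INSIG1, STARD4 and MSMO1) and an LXR target (ABCA1). They were chosen after the values were seen. Promoter windows from RefSeq (build GRCh38.p14) matched 28 of the 33 genes, in 38 windows. The 250 bases before the start were searched on both strands for TCACNCCAC, a form of the SREBP element, for CCAAT, the NF-Y box, and for GGGCGG, the SP1 box. CCAAT was present in 21 of the 28 genes and in 65.8% of their windows, against 32.0% of all 34943 windows in the table. GGGCGG was present in 27 of the 28 genes and in 89.5% of their windows, against 42.5% of all windows. TCACNCCAC was found in SREBF2 alone, 133 bases before the RefSeq start, which is 2.63% of the windows against 0.881% of all. Capitals mark the matches to any of the 3 motifs, which overlap each other where boxes adjoin. Each stretch stops before both the RefSeq and the GENCODE start, which leaves 148 to 224 bases. Matches in the rest of the 250 bases searched are not shown. The stretches shown are SREBF2 at chr22:41832855-41833078 (plus strand), INSIG1 at chr7:155297628-155297775 (plus strand), STARD4 at chr5:111512591-111512785 (minus strand), MSMO1 at chr4:165327419-165327622 (plus strand) and ABCA1 at chr9:104928238-104928405 (minus strand).
SREBF2: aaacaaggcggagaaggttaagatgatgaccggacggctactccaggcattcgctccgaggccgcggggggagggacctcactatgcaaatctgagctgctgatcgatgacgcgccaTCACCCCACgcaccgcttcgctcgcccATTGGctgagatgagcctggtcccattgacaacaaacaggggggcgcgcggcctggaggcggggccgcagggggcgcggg
INSIG1: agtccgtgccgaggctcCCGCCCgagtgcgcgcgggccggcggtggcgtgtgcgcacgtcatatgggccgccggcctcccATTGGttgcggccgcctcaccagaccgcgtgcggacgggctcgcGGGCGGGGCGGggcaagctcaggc
STARD4: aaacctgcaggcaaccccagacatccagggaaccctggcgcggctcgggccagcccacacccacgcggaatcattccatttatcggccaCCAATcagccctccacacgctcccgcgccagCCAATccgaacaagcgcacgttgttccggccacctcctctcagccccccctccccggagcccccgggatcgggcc
MSMO1: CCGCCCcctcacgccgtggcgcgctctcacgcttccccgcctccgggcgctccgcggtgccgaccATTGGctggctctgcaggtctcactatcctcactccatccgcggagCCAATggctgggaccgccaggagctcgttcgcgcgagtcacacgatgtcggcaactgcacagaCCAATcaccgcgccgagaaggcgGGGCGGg
ABCA1: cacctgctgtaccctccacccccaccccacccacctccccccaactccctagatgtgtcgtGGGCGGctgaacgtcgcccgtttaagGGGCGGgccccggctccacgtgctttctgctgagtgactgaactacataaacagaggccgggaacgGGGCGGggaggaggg
CCAAT, read as ATTGG on the other strand, is in the first 4 stretches and not in that of ABCA1. This does not divide the roles, since PMVK, CYP51A1, SREBF1, ELOVL6, FADS1 and FADS2 have no CCAAT in any window while the LXR target MYLIP has 2.

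In control cells the lines differed in how much of the pathway they expressed. In a model of all 27 libraries, 28 of the 33 genes were lower and 4 higher in DU145 control cells than in 22Rv1 control cells (edgeR adjusted p below 0.05), where 38.0% of all 16322 genes tested were lower and 37.9% higher, 75.9% in all. The median log2 difference was -1.49 over the 33 genes and -0.01 over all genes. In PC3 against 22Rv1, 24 were lower and 5 higher (41.1% and 39.4% of all genes, 80.5% in all), with a median of -0.83 against -0.04 over all genes. PC3 against DU145 gave 18 higher and 7 lower (37.1% and 38.8% of all genes, 75.9% in all), with a median of 0.45 against -0.03. Each line is a single cell line, so these are descriptions of the 3 lines.

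Per kilobase of exon, SCD, the desaturase that makes oleate from stearate, was the most abundant of the 33 transcripts in all 3 control groups. Its level was 389 ± 18.5 CPM per kb in 22Rv1 (SD, n = 3), 235 ± 4.54 in PC3 and 165 ± 10.5 in DU145. The next highest level was that of FDFT1, squalene synthase, in 22Rv1 (284 CPM per kb). In DU145 it was that of ACLY, which supplies cytosolic acetyl-CoA (113 CPM per kb), and in PC3 that of FASN, fatty acid synthase (91.9 CPM per kb). The sterol exporters stood at the bottom of the order in 22Rv1, with ABCA1 at 0.0283 and ABCG1 at 0.0788 CPM per kb. ABCG1 was also the lowest in DU145 (1.47 CPM per kb) and in PC3 (1.37 CPM per kb).

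**Figure D1:**
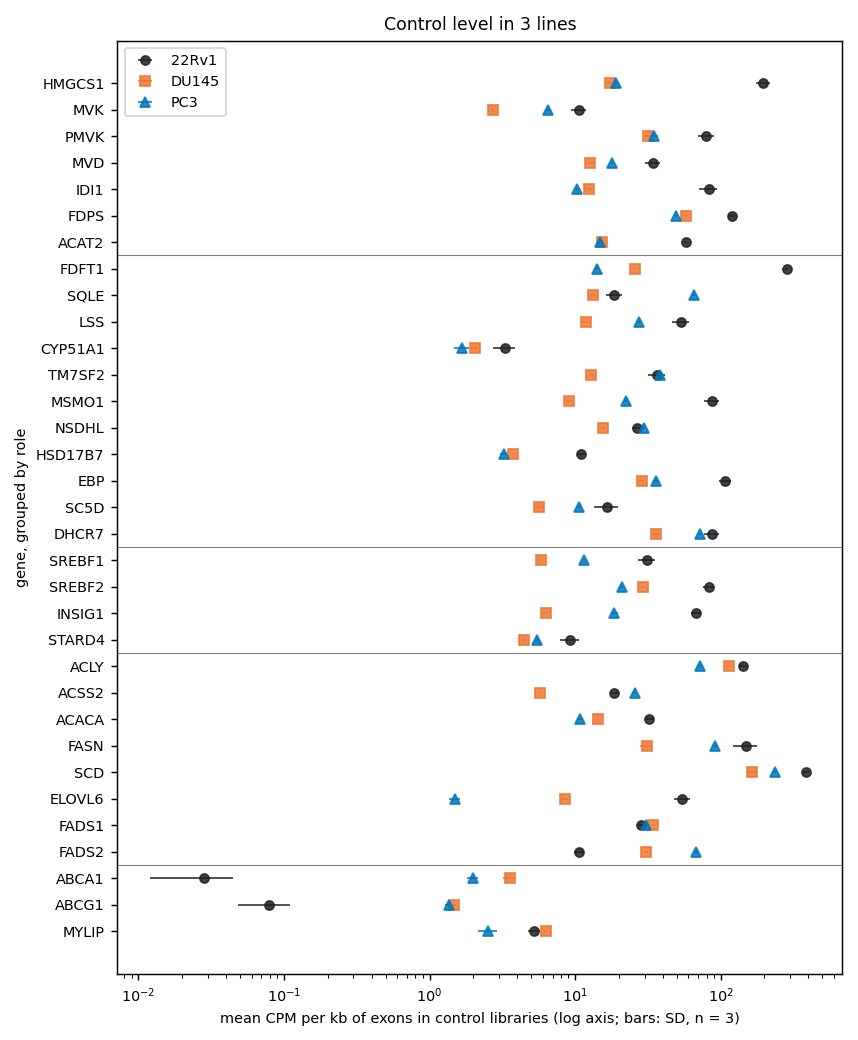
Mean level of each of the 33 genes in the control libraries of 22Rv1, DU145 and PC3, in CPM per kb of exon on a log axis, with bars for the SD of 3 libraries. SCD is the highest point in each line, at 389, 165 and 235 CPM per kb, and ABCA1 at 0.0283 and ABCG1 at 0.0788 CPM per kb lie lowest in 22Rv1.

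Single genes showed how far the lines lay apart. HMGCS1, which makes the HMG-CoA that enters the pathway, differed from 22Rv1 by -3.49 (SE 0.25) in DU145 and by -3.21 (SE 0.24) in PC3 on the log2 scale, and its level did not differ detectably between PC3 and DU145 (log2 difference 0.29, edgeR adjusted p 0.261). The log2 difference of INSIG1 from 22Rv1 was -3.44 (SE 0.34) in DU145 and -1.72 (SE 0.31) in PC3. ELOVL6, which elongates palmitate, was lower too, with log2 differences of -2.68 (SE 0.11) in DU145 and -5.04 (SE 0.13) in PC3. The reverse order was seen for FADS2, the delta-6 desaturase, whose log2 level was above that of 22Rv1 by 1.52 in DU145 and by 2.81 in PC3. The exporters were higher outside 22Rv1: the fitted log2 level of ABCA1 was 6.95 (SE 0.40) higher in DU145 and 6.25 (SE 0.41) higher in PC3, and that of ABCG1 4.21 and 4.25 higher. In 22Rv1 control libraries ABCA1 gave 0.533, 0.215 and 0.214 CPM, close to the 0.160 CPM that a floor of 3 counts stands for in replicate 1, so those folds carry wide counting error.

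In PC3 with RIPK2 gRNA 2, nearly the whole pathway was lower than in the control. Of the 33 genes, 29 fell and 2 rose (edgeR adjusted p below 0.05), and the median log2 fold change was -0.46 against 0.01 over all genes. Over all 14718 genes tested in PC3, 63.6% passed, 31.5% as lower and 32.1% as higher. With gRNA 10 the picture was mixed: 20 fell and 9 rose, with a median of -0.24 against 0.01, where 73.5% of all genes passed, 35.6% as lower and 37.9% as higher. Both comparisons use the same 3 control libraries, so their values are given side by side and no count of shared calls is drawn from them. Every fit was repeated leaving out 1 library at a time, and a call described as lost without a library did not pass in the fit lacking it. In bulk RNA, fewer cells of a kind and less of a transcript per cell cannot be told apart.

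**Figure D2:**
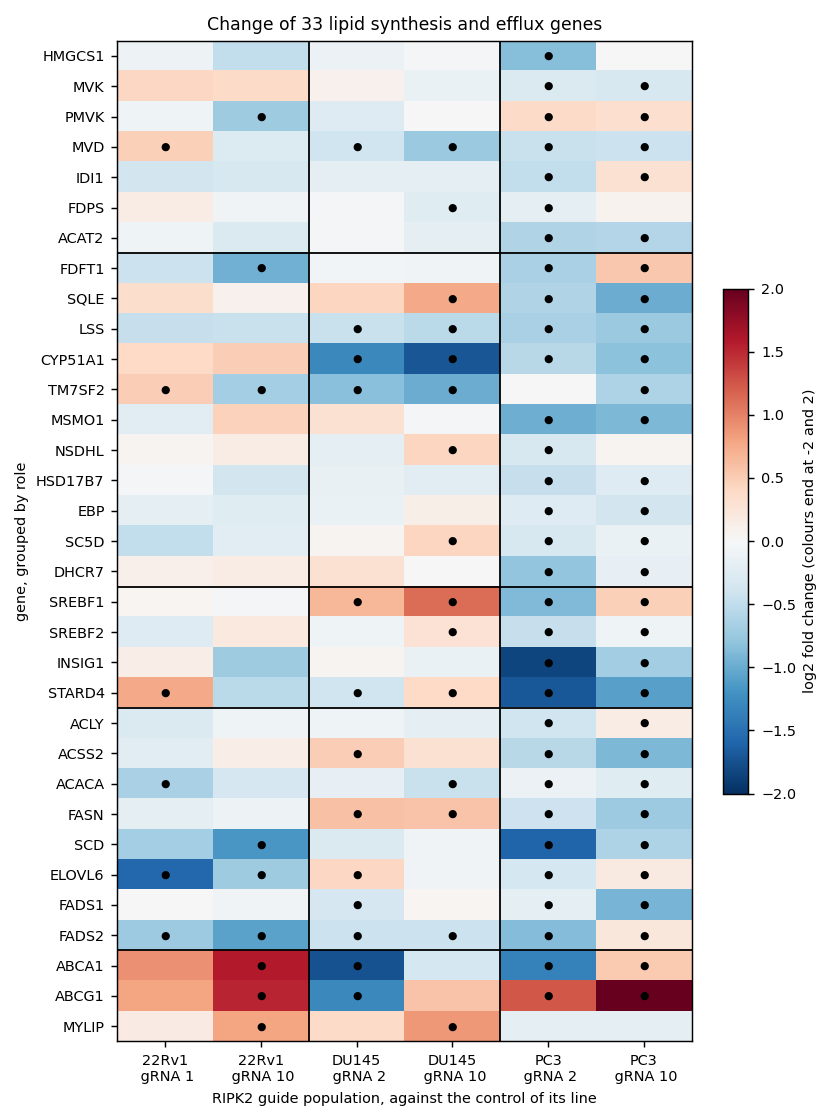
Log2 fold change of each of the 33 genes (rows, ordered by role) in each of the 6 comparisons of a RIPK2 guide with the control of its line (columns), from the edgeR fits of 22Rv1, DU145 and PC3. The PC3 gRNA 2 column is negative in nearly every row, down to -1.84 for INSIG1, with PMVK (0.39) and ABCG1 (1.25) the 2 genes that rose, whereas the columns of 22Rv1 and DU145 hold both signs.

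All 4 regulators fell with gRNA 2 in PC3 (median -1.29), and 3 fell and 1 rose with gRNA 10 (median -0.39). INSIG1, the sterol-sensing anchor of the SREBP complex, gave 69.6, 63.6 and 70.2 CPM in the control libraries, 20.1, 16.9 and 19.7 CPM with gRNA 2, and 40.6, 41.7 and 43.4 CPM with gRNA 10. The 3 groups did not overlap, and the gRNA 10 libraries lay between the control and gRNA 2 libraries. INSIG1 fell by 1.84 (SE 0.06, edgeR adjusted p 1.21e-21) with gRNA 2 and by 0.69 (SE 0.05, edgeR adjusted p 7.88e-13) with gRNA 10 on the log2 scale. STARD4, which carries cholesterol between membranes, gave 32.4, 30.6 and 30.5 CPM in the control, 9.31, 9.96 and 9.59 CPM with gRNA 2, and 15.4, 15.3 and 13.3 CPM with gRNA 10. Its libraries fell into the same order of groups, again without overlap. STARD4 fell by 1.70 (SE 0.07, edgeR adjusted p 8.6e-19) with gRNA 2 and by 1.09 (SE 0.07, edgeR adjusted p 2.69e-15) with gRNA 10.

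Of the SREBP transcripts, SREBF1 did not follow that order and SREBF2 did. SREBF1 gave 93.1, 92.4 and 91.3 CPM in PC3 control libraries, 49.2, 48.4 and 53.1 CPM with gRNA 2, and 133, 125 and 127 CPM with gRNA 10. Thus gRNA 2 libraries lay below the control and gRNA 10 libraries above it. SREBF1 fell by 0.88 (SE 0.05, edgeR adjusted p 8.56e-17) with gRNA 2 and rose by 0.47 (SE 0.04, edgeR adjusted p 1.32e-11) with gRNA 10 on the log2 scale. SREBF2 gave 159, 157 and 162 CPM in the control, 111, 119 and 118 CPM with gRNA 2, and 153, 149 and 146 CPM with gRNA 10, again without overlap. It fell by 0.46 (SE 0.04, edgeR adjusted p 1.33e-11) with gRNA 2. With gRNA 10 the fall was 0.09 (edgeR adjusted p 0.0332), and it no longer passed without control replicate 1 or 3 or without gRNA 10 replicate 2 or 3 (adjusted p 0.0523 to 0.110).

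Among the 7 mevalonate genes in PC3, 6 fell and 1 rose with gRNA 2 (median log2 fold change -0.44), and 3 fell and 2 rose with gRNA 10 (median 0.01). HMGCS1 gave 91.1, 87.5 and 91.4 CPM in the control, 51.1, 51.1 and 47.7 CPM with gRNA 2, and 89.6, 93.6 and 87.7 CPM with gRNA 10. Only the gRNA 2 libraries lay apart, and HMGCS1 fell by 0.85 (SE 0.05, edgeR adjusted p 2.2e-16) there, while its log2 fold change with gRNA 10 was 0.01 (edgeR adjusted p 0.918). IDI1, the isopentenyl diphosphate isomerase, had log2 fold changes of -0.49 with gRNA 2 and 0.31 with gRNA 10, both past the threshold. PMVK, phosphomevalonate kinase, rose with each guide: its libraries went from 45.8, 41.7 and 46.4 CPM in the control to 57.5, 57.5 and 60.6 CPM with gRNA 2 and 55.3, 56.8 and 56.4 CPM with gRNA 10, log2 fold changes of 0.39 (SE 0.05) and 0.33. ACAT2, which makes acetoacetyl-CoA, fell by 0.60 and 0.58 with the respective guides, and MVD, mevalonate diphosphate decarboxylase, by 0.44 with each.

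From squalene to cholesterol, 10 of 11 genes fell with gRNA 2 (median -0.56), and 9 fell and 1 rose with gRNA 10 (median -0.37). MSMO1, the sterol C4 methyl oxidase, gave 64.3, 63.4 and 66.4 CPM in the control, 34.1, 31.3 and 32.8 CPM with gRNA 2, and 34.0, 34.4 and 35.4 CPM with gRNA 10. Both guide groups lay well below the control and close to each other, with falls of 0.98 with gRNA 2 (SE 0.05, edgeR adjusted p 4.45e-17) and 0.90 with gRNA 10 (SE 0.05, edgeR adjusted p 1.29e-16). LSS, lanosterol synthase, gave 204, 193 and 202 CPM in the control, 126, 131 and 125 CPM with gRNA 2, and 121, 120.4 and 116 CPM with gRNA 10. It fell by 0.65 (SE 0.04, edgeR adjusted p 2.64e-15) and by 0.75 (SE 0.04, edgeR adjusted p 4.1e-17). SQLE, squalene epoxidase, had log2 fold changes of -0.61 and -0.99. FDFT1 was the exception, at 73.3, 71.4 and 74.3 CPM in the control, 48.0, 47.6 and 44.5 CPM with gRNA 2, and 107, 104 and 108 CPM with gRNA 10. Its groups separated in opposite directions, with a fall of 0.65 (SE 0.05, edgeR adjusted p 1.58e-13) and a rise of 0.54 (SE 0.04, edgeR adjusted p 9.47e-13). TM7SF2, the sterol C14 reductase, stayed at a log2 fold change of -0.00 (edgeR adjusted p 0.932) with gRNA 2 and fell by 0.61 with gRNA 10.

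All 8 fatty acid genes fell with gRNA 2 in PC3 (median -0.41), and 5 fell and 3 rose with gRNA 10 (median -0.42). SCD gave 1259, 1233 and 1281 CPM in the control, 408, 407 and 423 CPM with gRNA 2, and 823, 831 and 814 CPM with gRNA 10. The groups did not overlap, and SCD fell by 1.61 (SE 0.03, edgeR adjusted p 8.76e-27) and by 0.61 (SE 0.03, edgeR adjusted p 8.55e-17) respectively. FADS2 gave 753, 719.9 and 767 CPM in the control, 403, 403 and 421 CPM with gRNA 2, and 900.5, 844 and 882 CPM with gRNA 10. It lay below the control with gRNA 2 (log2 fold change -0.87, SE 0.04) and above it with gRNA 10 (0.23, SE 0.04). FADS1, the delta-5 desaturase encoded beside FADS2, fell by 0.17 with gRNA 2 and by 0.92 with gRNA 10. FASN fell by 0.42 (SE 0.08, edgeR adjusted p 0.00272) and by 0.72 (SE 0.08, edgeR adjusted p 8.43e-05). The rise of ELOVL6 with gRNA 10 by 0.19 (edgeR adjusted p 0.0496) did not pass without control replicate 1 or 3, gRNA 10 replicate 2 or 3, or each gRNA 2 library in turn, with adjusted p from 0.0547 to 0.209. The fall of ACACA, acetyl-CoA carboxylase, with gRNA 2 (by -0.12, edgeR adjusted p 0.0308) did not pass without control replicate 2 or 3 or gRNA 2 replicate 1 or 3 (adjusted p 0.0578 to 0.165).

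Of the 3 LXR targets in PC3, ABCG1 rose with both guides, ABCA1 moved in opposite directions and MYLIP did not pass. ABCG1, which exports cholesterol to lipoproteins, gave 7.94, 8.91 and 8.25 CPM in the control, 19.6, 19.5 and 20.6 CPM with gRNA 2, and 191, 203 and 205 CPM with gRNA 10. The 3 groups were widely separated, and ABCG1 rose by 1.25 (SE 0.07, edgeR adjusted p 2.18e-15) with gRNA 2 and by 4.58 (SE 0.06, edgeR adjusted p 6.56e-33) with gRNA 10 on the log2 scale. ABCA1, which loads cholesterol onto apolipoprotein A-I, gave 20.3, 23.6 and 23.5 CPM in the control, 9.07, 8.92 and 8.35 CPM with gRNA 2, and 30.3, 36.4 and 29.9 CPM with gRNA 10. It fell by 1.36 (SE 0.09, edgeR adjusted p 6.53e-13) with gRNA 2 and rose by 0.52 (SE 0.07, edgeR adjusted p 5.3e-07) with gRNA 10. For MYLIP, which marks lipoprotein receptors for degradation, the log2 differences were -0.19 and -0.20, with edgeR adjusted p of 0.153 and 0.119.

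**Figure D3:**
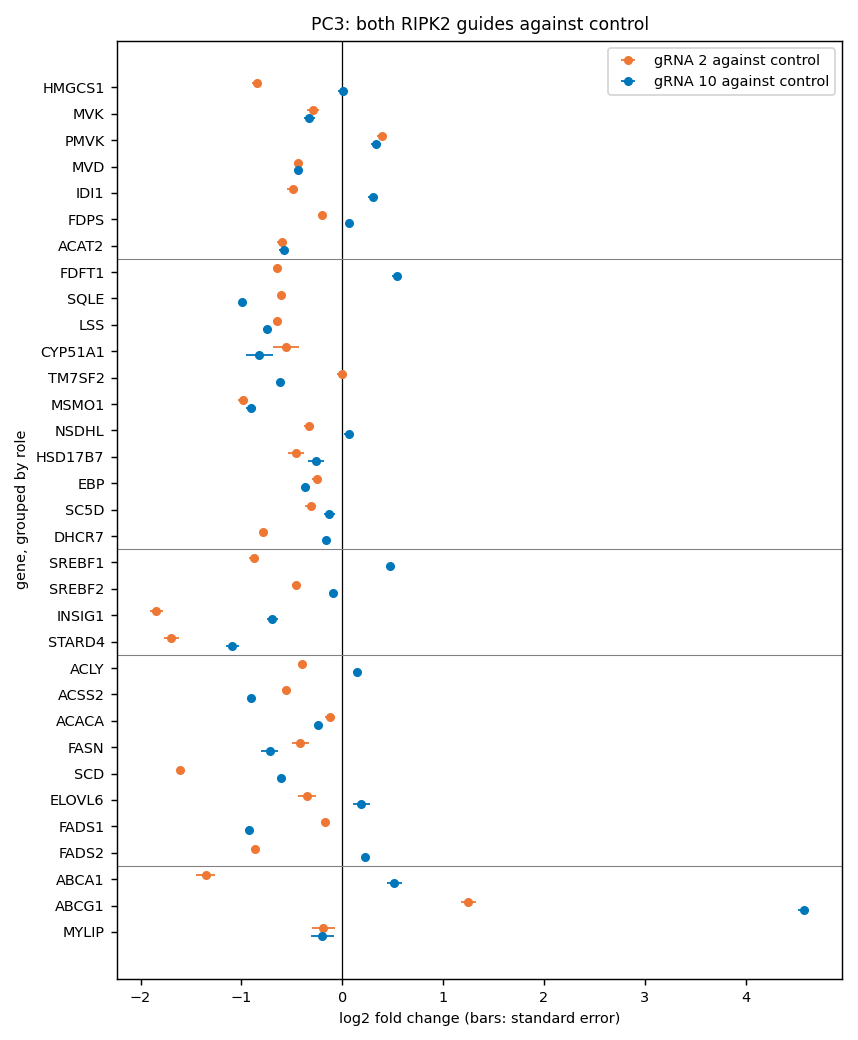
Log2 fold change against the PC3 control of each of the 33 genes with RIPK2 gRNA 2 and with RIPK2 gRNA 10, with bars for the standard error of the edgeR fit. The markers of both guides lie close together for MSMO1 (-0.98 and -0.90) and LSS (-0.65 and -0.75), and far apart for SREBF1 (-0.88 and 0.47), ABCA1 (-1.36 and 0.52) and ABCG1 (1.25 and 4.58).

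Setting the RIPK2 guide populations of PC3 against each other, 18 of the 33 genes were higher and 8 lower with gRNA 10 than with gRNA 2, where 73.4% of all genes passed (36.9% higher, 36.5% lower), and the median log2 difference was 0.20 against 0.00 over all genes. Without gRNA 2 replicate 2, 5 in place of 8 were lower, where 69.8% of all genes passed. All 4 regulators were higher with gRNA 10 (median 0.88), led by SREBF1 at 1.35 (SE 0.04, edgeR adjusted p 3.48e-22) and INSIG1 at 1.15 (SE 0.06, edgeR adjusted p 2.12e-16). Of the mevalonate genes 3 were higher and 0 lower, namely HMGCS1, IDI1 and FDPS, farnesyl diphosphate synthase. FDFT1 was higher by 1.18, FADS2 by 1.10 and SCD by 1.00 on the log2 scale. The lower genes included FADS1 (-0.75), TM7SF2 (-0.61) and SQLE (-0.39). ABCG1 and ABCA1 were higher with gRNA 10 by 3.33 and 1.87. MSMO1, whose log2 difference between the guides was 0.08 (SE 0.05, edgeR adjusted p 0.171), did not pass.

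In DU145 the changes were fewer and went both ways. With gRNA 2, 4 of the 33 genes rose and 9 fell, where 34.0% of the 14908 genes tested passed (17.1% higher, 17.0% lower), and the median log2 fold change was -0.12 against 0.01 over all genes. These counts changed when single libraries were left out, as did the share of all genes called. The rises numbered 2 without control replicate 1 or 3, and the falls numbered 3, 5 and 4 without control replicates 1, 2 and 3 in turn and 16 without gRNA 2 replicate 3. Of all genes, 21.5%, 22.5% and 22.0% passed without control replicates 1, 2 and 3, and 45.8% without gRNA 2 replicate 3. With gRNA 10, 8 rose and 7 fell, where 40.0% of all genes passed (20.2% higher, 19.8% lower), and the median was -0.07 against 0.00. The rises numbered 4, 4 and 3 without control replicates 1, 2 and 3 in turn, 5 without gRNA 10 replicate 2 and 4 without gRNA 10 replicate 3. The shares of the 33 genes that passed with each guide were close to those of all genes.

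SREBF1 rose with both DU145 guides. It gave 46.1, 44.4 and 50.1 CPM in the control, 91.3, 69.2 and 62.2 CPM with gRNA 2, and 89.0, 114 and 102 CPM with gRNA 10. Every guide library lay above every control library. The rises were 0.66 with gRNA 2 (SE 0.14, edgeR adjusted p 0.00567) and 1.12 with gRNA 10 (SE 0.14, edgeR adjusted p 0.000192) on the log2 scale. SREBF2 gave 219, 214 and 228 CPM in the control, 231, 209 and 185 CPM with gRNA 2, and 251, 287 and 272 CPM with gRNA 10. Its log2 fold change with gRNA 2 was -0.08 (edgeR adjusted p 0.538). With gRNA 10 it rose by 0.29 (SE 0.09, edgeR adjusted p 0.0293), a call lost without each control library in turn and without gRNA 10 replicate 2 or 3 (adjusted p 0.0596 to 0.108). INSIG1, at 23.8, 23.0 and 21.8 CPM in the control, gave 19.7, 17.4 and 34.0 CPM with gRNA 2 and 20.0, 21.4 and 21.4 CPM with gRNA 10. The third gRNA 2 library lay above all controls and the other two below, and the log2 fold changes of 0.05 and -0.13 did not pass (edgeR adjusted p 0.875 and 0.658).

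STARD4 moved in opposite directions with the DU145 guides. Its libraries held 25.2, 25.99 and 24.6 CPM in the control, 19.0, 22.0 and 16.1 CPM with gRNA 2, and 36.4, 30.4 and 33.4 CPM with gRNA 10. The groups did not overlap. It fell by 0.41 (SE 0.12, edgeR adjusted p 0.026) with gRNA 2 and rose by 0.40 (SE 0.12, edgeR adjusted p 0.0208) with gRNA 10. The fall did not pass without each control library in turn or gRNA 2 replicate 1 (adjusted p 0.0531 to 0.0832), nor the rise without each control library in turn or gRNA 10 replicate 1 or 3 (adjusted p 0.0528 to 0.0878).

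The sterol enzymes that moved in DU145 mostly fell. CYP51A1, the lanosterol demethylase, gave 7.49, 7.58 and 6.83 CPM in the control, 3.72, 2.24 and 2.99 CPM with gRNA 2, and 1.51, 2.74 and 2.45 CPM with gRNA 10. Both guide groups lay below the control without overlap, with falls of 1.29 with gRNA 2 (SE 0.23, edgeR adjusted p 0.00198) and 1.70 with gRNA 10 (SE 0.23, edgeR adjusted p 0.000294). Its level is uncertain, since 79.4% of its exonic bases are shared with AC000120.2, a gene on the same strand in GENCODE 29, so that reads could be split or dropped in counting. TM7SF2 gave 42.9, 44.9 and 44.6 CPM in the control, 31.9, 24.8 and 17.5 CPM with gRNA 2, and 20.7, 22.5 and 23.5 CPM with gRNA 10. It fell by 0.83 (SE 0.17, edgeR adjusted p 0.00444) and by 0.99 (SE 0.17, edgeR adjusted p 0.00126). LSS gave 89.4, 80.2 and 87.3 CPM in the control, 70.7, 52.5 and 65.0 CPM with gRNA 2, and 53.7, 66.3 and 57.4 CPM with gRNA 10. It fell by 0.45 (SE 0.12, edgeR adjusted p 0.0163) and by 0.53 (SE 0.12, edgeR adjusted p 0.00546), the former call being lost without control replicate 1 or 3 (adjusted p 0.0580 and 0.0655).

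Further sterol genes of DU145 rose with gRNA 10. SQLE rose by 0.76 (SE 0.17, edgeR adjusted p 0.0047), its libraries going from 59.5, 56.4 and 56.3 CPM to 102, 92.7 and 97.0 CPM. With gRNA 2 its libraries held 60.4, 68.1 and 104 CPM (log2 fold change 0.43, edgeR adjusted p 0.0684). SC5D, lathosterol oxidase, and NSDHL, which removes sterol methyl groups, each rose by 0.43 with gRNA 10. The call of NSDHL (edgeR adjusted p 0.0396) was lost without each of the 6 control and gRNA 10 libraries (adjusted p 0.0743 to 0.119), and that of SC5D (edgeR adjusted p 0.0109) without control replicate 3 (adjusted p 0.0545). Among the mevalonate genes, MVD fell by 0.40 with gRNA 2 and by 0.74 with gRNA 10. The gRNA 2 call of MVD (edgeR adjusted p 0.0277) was lost without each control library in turn or gRNA 2 replicate 1 (adjusted p 0.0527 to 0.116).

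Among the fatty acid genes of DU145, FASN gave 300.3, 259 and 310.5 CPM in the control, 409, 310.3 and 582 CPM with gRNA 2, and 374, 480.1 and 439 CPM with gRNA 10. Its gRNA 2 range reached down to the highest control library, whereas the gRNA 10 libraries lay above all controls. The rises of 0.58 with gRNA 2 (SE 0.19, edgeR adjusted p 0.0405) and 0.57 with gRNA 10 (SE 0.19, edgeR adjusted p 0.0373) lay near the threshold. The gRNA 2 call was lost without each control library, each gRNA 10 library or gRNA 2 replicate 1 (adjusted p 0.0512 to 0.140), and the gRNA 10 call without each control library, gRNA 10 replicate 2 or 3 or gRNA 2 replicate 1 (adjusted p 0.0544 to 0.132). In those fits the log2 fold changes of FASN ran from 0.51 to 0.63 and from 0.49 to 0.62. Without gRNA 2 replicate 3 the rise with gRNA 2 was 0.31 and still passed (edgeR adjusted p 0.0433). ELOVL6 rose by 0.41 (SE 0.08, edgeR adjusted p 0.00422) with gRNA 2, against a log2 fold change of -0.07 with gRNA 10. FADS2 fell by 0.43 with each guide, calls lost without each control library in turn for gRNA 2 (edgeR adjusted p 0.0520 to 0.0751) and without control replicate 1 or 3 or gRNA 10 replicate 1 or 3 for gRNA 10 (edgeR adjusted p 0.0527 to 0.0771).

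The exporters fell with gRNA 2 in DU145. ABCA1 gave 44.9, 39.0 and 37.4 CPM in the control, 12.7, 18.6 and 4.81 CPM with gRNA 2, and 34.1, 29.5 and 31.3 CPM with gRNA 10. All gRNA 2 libraries lay far below the others, and ABCA1 fell by 1.74 (SE 0.33, edgeR adjusted p 0.00294). The log2 fold change with gRNA 10 was -0.35 (SE 0.32, edgeR adjusted p 0.399), which passed without gRNA 2 replicate 3 (-0.36, adjusted p 0.0148). ABCG1 gave 8.93, 8.73 and 9.32 CPM in the control, 5.11, 5.07 and 0.719 CPM with gRNA 2, and 12.4, 13.9 and 13.5 CPM with gRNA 10. Its fall of 1.29 (SE 0.43, edgeR adjusted p 0.0388) with gRNA 2 did not pass without each of the 6 control and gRNA 10 libraries (adjusted p 0.0615 to 0.0976). The log2 fold change of ABCG1 with gRNA 10 was 0.56 (edgeR adjusted p 0.279), and it passed without gRNA 2 replicate 3 (adjusted p 0.000105). MYLIP rose by 0.87 (SE 0.16, edgeR adjusted p 0.00165) with gRNA 10. With gRNA 2 the log2 fold change of MYLIP was 0.38 and did not pass. Without gRNA 2 replicate 3 it was 0.58 and passed (edgeR adjusted p 3.94e-05). Between the guides themselves, ABCA1 was higher by 1.39 (SE 0.33, edgeR adjusted p 0.0081) and ABCG1 by 1.85 (SE 0.42, edgeR adjusted p 0.00638) with gRNA 10 than with gRNA 2.

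Over all 33 genes, 9 were higher and 3 lower with gRNA 10 than with gRNA 2 in DU145, where 38.8% of all genes passed (19.6% higher, 19.2% lower), and the median log2 difference was -0.01 against -0.02 over all genes. The lower genes numbered 1 without gRNA 10 replicate 2 or 3, 6 without gRNA 2 replicate 2 and 5 without gRNA 2 replicate 3. Of all genes, 28.3% and 27.1% passed without gRNA 10 replicates 2 and 3, and 46.1% and 47.9% without gRNA 2 replicates 2 and 3. STARD4 was higher by 0.81 (SE 0.12, edgeR adjusted p 0.000597), NSDHL by 0.62 and SREBF1 by 0.45, while ELOVL6 was lower (-0.48, SE 0.08, edgeR adjusted p 0.00145). The SREBF1 difference (edgeR adjusted p 0.028) did not pass without gRNA 10 replicate 2 or 3 or gRNA 2 replicate 2 (adjusted p 0.0603 to 0.109).

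**Figure D4:**
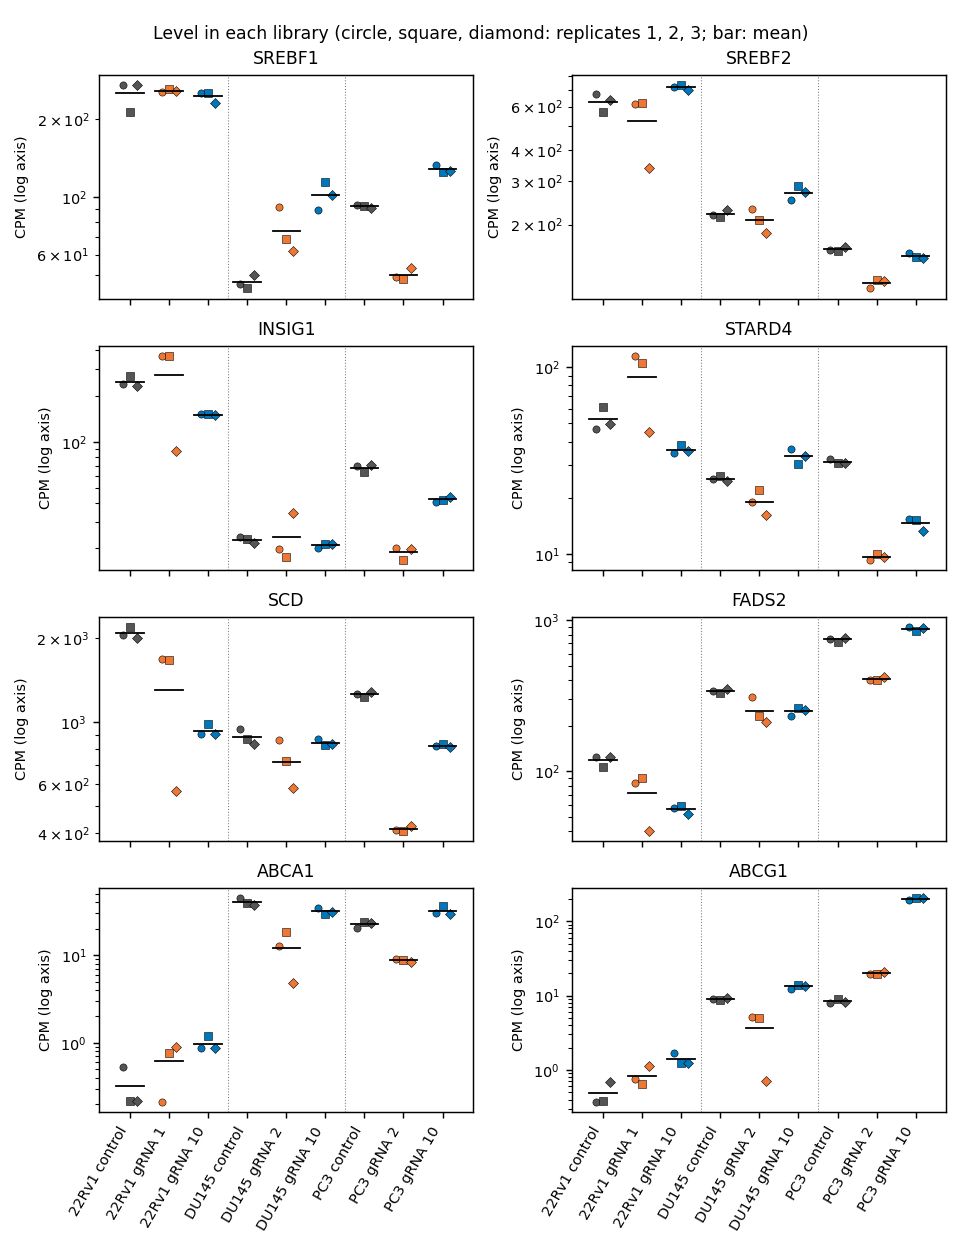
Level of SREBF1, SREBF2, INSIG1, STARD4, SCD, FADS2, ABCA1 and ABCG1 in each of the 27 libraries, in CPM on a log axis. Circles, squares and diamonds stand for replicates 1, 2 and 3 and the bar for the mean of 3 libraries. The PC3 symbols nearly coincide within groups, while the diamond of 22Rv1 gRNA 1 drops below its group for INSIG1 (86.9 CPM) and SCD (564 CPM), and that of DU145 gRNA 2 for ABCG1 (0.719 CPM).

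In 22Rv1 few of the genes passed the test. With gRNA 1, 3 rose and 3 fell, where 48.5% of the 15198 genes tested passed (25.6% higher, 22.9% lower), and the median log2 fold change was -0.08 against 0.02 over all genes. The rises numbered 1 without control replicate 1 or 2, gRNA 1 replicate 2 or each gRNA 10 library in turn, and 14 without gRNA 1 replicate 3. Of all genes, 40.0%, 40.2% and 45.6% passed without control replicate 1, control replicate 2 and gRNA 1 replicate 2. The share was 43.5% without each gRNA 10 library and 54.6% without gRNA 1 replicate 3. The falls numbered 5 without gRNA 1 replicate 1 or replicate 3 (47.6% and 54.6% of all genes passed). With gRNA 10, 3 rose and 6 fell, where 40.6% of all genes passed (20.0% higher, 20.6% lower), and the median was -0.21 against 0.00. Without gRNA 1 replicate 3, which enters the estimate of the spread, 7 rose and 16 fell with gRNA 10, where 58.3% of all genes passed. The share of the 33 genes that passed was below that of all genes with both guides while that library was kept.

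Of the 8 fatty acid genes, 3 fell with each guide in 22Rv1, and 4 fell with each guide without gRNA 1 replicate 3. ELOVL6 gave 368, 455 and 373 CPM in the control, 148, 149 and 104 CPM with gRNA 1, and 236, 250.1 and 241 CPM with gRNA 10. The groups did not overlap, and the gRNA 10 libraries lay between the others. ELOVL6 fell by 1.57 (SE 0.14, edgeR adjusted p 1e-05) with gRNA 1 and by 0.72 (SE 0.14, edgeR adjusted p 0.002) with gRNA 10. FADS2 gave 124, 107 and 124 CPM in the control, 84.0, 89.7 and 40.4 CPM with gRNA 1, and 57.3, 58.4 and 52.3 CPM with gRNA 10. It fell by 0.73 (SE 0.23, edgeR adjusted p 0.0244) and by 1.08 (SE 0.23, edgeR adjusted p 0.00389), the former call being lost without each control library in turn (adjusted p 0.0509 to 0.0690). ACACA fell by 0.65 (SE 0.15, edgeR adjusted p 0.00485) with gRNA 1, and SCD by 1.16 (SE 0.31, edgeR adjusted p 0.0119) with gRNA 10. The SCD libraries held 2061, 2194 and 1999.7 CPM in the control, 1681, 1667 and 564 CPM with gRNA 1, and 902, 985 and 903 CPM with gRNA 10.

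Of the sterol enzymes in 22Rv1, TM7SF2 separated the guides. It gave 129, 105 and 138 CPM in the control, 172, 189.6 and 161 CPM with gRNA 1, and 81.9, 77.4 and 73.9 CPM with gRNA 10. All gRNA 1 libraries lay above the control and all gRNA 10 libraries below it, with a rise of 0.49 (SE 0.11, edgeR adjusted p 0.00469) and a fall of 0.67 (SE 0.11, edgeR adjusted p 0.000817). FDFT1 fell by 0.95 (SE 0.20, edgeR adjusted p 0.0035) with gRNA 10, its libraries going from 1521, 1446 and 1467 CPM to 774, 783 and 732 CPM. PMVK fell by 0.71 (SE 0.12, edgeR adjusted p 0.000915) with gRNA 10. The rise of MVD by 0.47 with gRNA 1 (edgeR adjusted p 0.0426) was lost without each library of the line in turn except gRNA 1 replicate 3 (adjusted p 0.0621 to 0.163).

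The regulators of 22Rv1 gave no call with gRNA 10 while gRNA 1 replicate 3 was kept in the fit. INSIG1 gave 241, 271 and 233 CPM in the control, 367, 366 and 86.9 CPM with gRNA 1, and 152, 153 and 149 CPM with gRNA 10. Replicates 1 and 2 of gRNA 1 lay above all controls and replicate 3 below all other libraries, and the log2 fold changes of 0.14 (SE 0.39) and -0.71 (SE 0.39) did not pass (edgeR adjusted p 0.785 and 0.171). SREBF1 gave 272, 213 and 271 CPM in the control, 254, 262 and 258 CPM with gRNA 1, and 254, 252 and 231 CPM with gRNA 10. Its groups overlapped, with log2 fold changes of 0.03 and -0.04. SREBF2 gave 675, 571 and 637 CPM in the control, 616, 623 and 339 CPM with gRNA 1, and 719, 736 and 701 CPM with gRNA 10, and its log2 fold changes of -0.26 and 0.20 did not pass (edgeR adjusted p 0.288 and 0.441), although that of gRNA 10 passed without gRNA 1 replicate 3 (adjusted p 0.0196). STARD4 gave 46.7, 61.3 and 49.8 CPM in the control, 115, 106 and 44.9 CPM with gRNA 1, and 34.8, 38.1 and 35.5 CPM with gRNA 10. Its rise of 0.75 (SE 0.27, edgeR adjusted p 0.0417) with gRNA 1 was lost without each library of the line in turn except gRNA 1 replicate 3 (adjusted p 0.0594 to 0.137). With gRNA 10 its log2 fold change was -0.54 (SE 0.28, edgeR adjusted p 0.143).

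The LXR targets were higher with gRNA 10 in 22Rv1, the exporters at levels near the floor. ABCA1 gave 0.533, 0.215 and 0.214 CPM in the control, 0.213, 0.757 and 0.892 CPM with gRNA 1, and 0.878, 1.19 and 0.875 CPM with gRNA 10. It rose by 1.59 (SE 0.50, edgeR adjusted p 0.0271) with gRNA 10, a call lost without control replicate 2 or 3 or each gRNA 10 library in turn (adjusted p 0.0527 to 0.105). ABCG1 gave 0.373, 0.376 and 0.697 CPM in the control, 0.745, 0.648 and 1.13 CPM with gRNA 1, and 1.70, 1.24 and 1.24 CPM with gRNA 10, and rose by 1.52 (SE 0.34, edgeR adjusted p 0.00469) with gRNA 10. ABCA1 passed the filter on low counts through its gRNA 10 libraries, the group in which it was high, so its call is no independent support. Neither exporter reached 10 counts in every library. MYLIP, at 15.1, 17.6 and 14.9 CPM in the control and 27.9, 25.3 and 28.6 CPM with gRNA 10, rose by 0.78 (SE 0.14, edgeR adjusted p 0.0011).

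Between the guides of 22Rv1, 2 of the 33 genes were higher and 4 lower with gRNA 10 than with gRNA 1, where 35.6% of all genes passed (16.8% higher, 18.8% lower), and the median log2 difference was -0.03 against -0.02 over all genes. The higher genes were ELOVL6 (0.85, SE 0.14, edgeR adjusted p 0.000894) and MYLIP (0.62). The lower genes were STARD4 (-1.30, SE 0.28, edgeR adjusted p 0.00447), TM7SF2 (-1.17, SE 0.11, edgeR adjusted p 2.86e-05), MVD (-0.75) and PMVK (-0.63). Without gRNA 1 replicate 2, 4 were higher, where 32.7% of all genes passed. Without gRNA 1 replicate 3, 5 were higher and 18 lower, where 45.1% of all genes passed.

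The replicate 3 library of 22Rv1 gRNA 1 was low in most of the pathway. In it 29 of the 33 genes lay below both other replicates, as did 45.8% of all 15198 genes. Another 3 lay above both, as did 44.0% of all genes. Against the mean of replicates 1 and 2, its median log2 ratio was -0.96 over the 33 genes and -0.01 over all genes (on CPM plus 1). It was lower by 0.5 or more for 26 of the 33 genes and for 11.7% of all genes. CYP51A1 stood at 0.234 times the mean of the other replicates, INSIG1 at 0.237, MSMO1 at 0.302, HMGCS1 at 0.322 and SCD at 0.337. SREBF1, at 0.998 times that mean, was level with them, and the LXR targets ran the other way, with ratios of 1.84 for ABCA1, 1.62 for ABCG1 and 1.37 for MYLIP. The levels of ABCA1 and ABCG1 in this group were near the floor, so their ratios carry wide counting error. In replicate 3 of DU145 gRNA 2 the deviations went both ways, with 16 of the 33 genes above and 13 below both other replicates. Of all 14908 genes, 38.2% lay above and 43.2% below both. The median log2 ratio was 0.09 over the 33 genes and -0.03 over all genes. There INSIG1 stood at 1.83 times the mean of replicates 1 and 2, while ABCA1 stood at 0.308 and ABCG1 at 0.141. The part of the higher mitochondrial shares in these deviations was not tested.

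**Figure D5:**
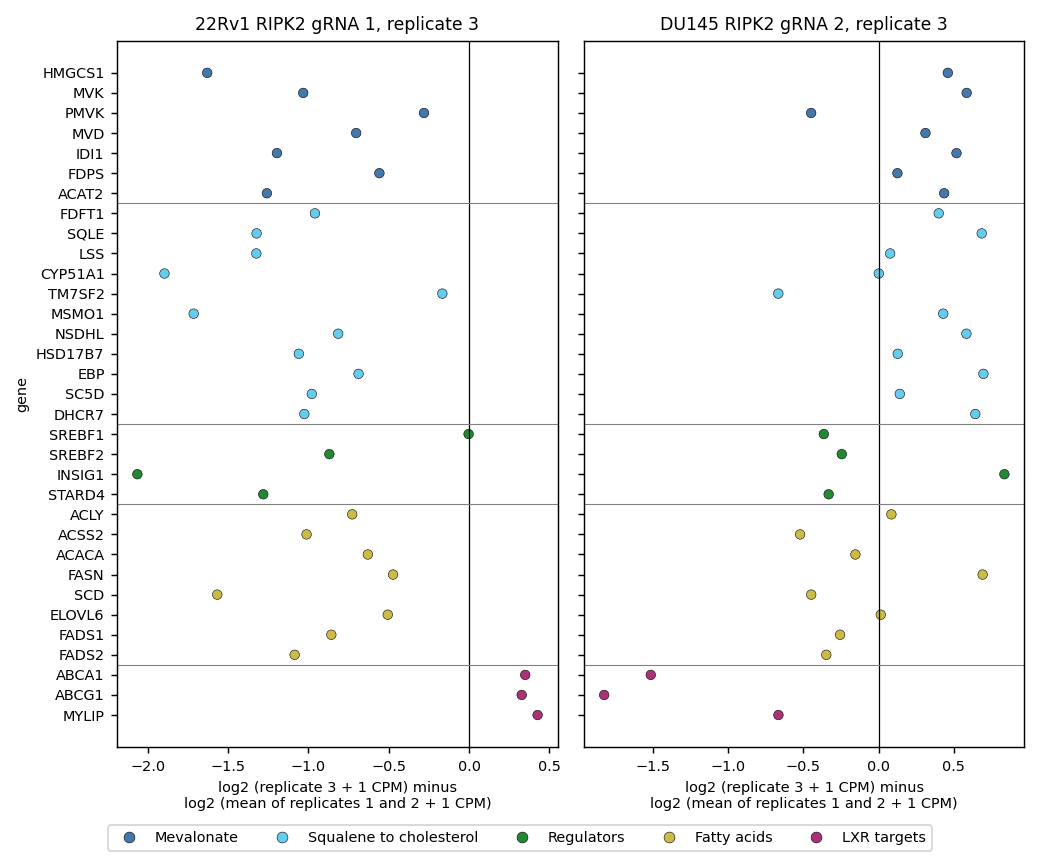
Log2 ratio of CPM plus 1 in replicate 3 to the mean of replicates 1 and 2, for each of the 33 genes, in 22Rv1 gRNA 1 and in DU145 gRNA 2. In 22Rv1 gRNA 1 most points lie well below 0 (median -0.96), and in DU145 gRNA 2 they scatter on both sides (median 0.09) with ABCG1 and ABCA1 among the lowest.

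Leaving replicate 3 of 22Rv1 gRNA 1 out changed the account of that line. With gRNA 1, 14 of the 33 genes then rose and 5 fell, where 54.6% of all genes passed, and the median log2 fold change was 0.15. The rises included 5 of the 7 mevalonate genes, 6 of the 11 genes from squalene to cholesterol and 2 of the 4 regulators, while 4 of the 8 fatty acid genes fell. INSIG1 rose by 0.55 (SE 0.07, edgeR adjusted p 1.41e-05) and STARD4 by 1.06 (SE 0.10, edgeR adjusted p 1.45e-06), while ELOVL6 fell by 1.43. With gRNA 10, 7 rose and 16 fell, where 58.3% of all genes passed, and 3 of the 4 regulators passed. INSIG1 fell by 0.71 (SE 0.06, edgeR adjusted p 5.26e-07) and STARD4 fell by 0.54 (SE 0.09, edgeR adjusted p 0.000309), while SREBF2 rose by 0.20 (SE 0.07, edgeR adjusted p 0.0196). Between the guides, 18 were then lower with gRNA 10 and 5 higher, where 45.1% of all genes passed. All 7 mevalonate genes were among the lower ones. The log2 difference of INSIG1 between gRNA 10 and gRNA 1 was -1.26 (SE 0.07, edgeR adjusted p 1.06e-08) in these libraries.

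Without replicate 3 of DU145 gRNA 2, 5 of the 33 genes rose and 16 fell with gRNA 2, where 45.8% of all genes passed, and the median was -0.19. INSIG1 then fell by 0.30 (SE 0.09, edgeR adjusted p 0.0161), ABCA1 by 1.37 (SE 0.14, edgeR adjusted p 3.87e-06) and ABCG1 by 0.82 (SE 0.11, edgeR adjusted p 7.02e-05). SREBF1 still rose, by 0.78. With gRNA 10, 10 rose and 10 fell (58.4% of all genes passed), and between the guides 12 were higher and 5 lower with gRNA 10 (47.9% of all genes passed).

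The change with both RIPK2 guides, taken as the mean of both guide groups minus the control, was tested for differences between lines in the model of all 27 libraries. It differed between DU145 and 22Rv1 for 11 of the 33 genes (47.1% of all genes), between PC3 and 22Rv1 for 17 (45.3%) and between PC3 and DU145 for 14 (42.2%). Between PC3 and 22Rv1 the number was 25 without replicate 3 of 22Rv1 gRNA 1, a fit for which the share of all genes was not computed. This mean can hide guides that moved in opposite directions, as for STARD4 in DU145 (-0.41 and 0.40), SREBF1 in PC3 (-0.88 and 0.47) and ABCA1 in PC3 (-1.36 and 0.52). The guides averaged were gRNA 1 and gRNA 10 in 22Rv1, and gRNA 2 and gRNA 10 in DU145 and PC3. In the differences that involve 22Rv1, line and guide therefore cannot be told apart. For INSIG1 the mean log2 effects in 22Rv1, DU145 and PC3 were -0.28, -0.04 and -1.28, and the difference between PC3 and DU145 was -1.25 (SE 0.39, edgeR adjusted p 0.0142). For STARD4 the effects were 0.11, 0.00 and -1.41, and PC3 differed from 22Rv1 by -1.52 (SE 0.24, edgeR adjusted p 1.31e-05). SREBF1 had effects of 0.00, 0.89 and -0.22, and PC3 differed from DU145 by -1.11 (SE 0.14, edgeR adjusted p 4.28e-07). MSMO1, with effects of 0.12, 0.13 and -0.96, differed by -1.09 (SE 0.30, edgeR adjusted p 0.00517) between PC3 and DU145. ELOVL6 had effects of -1.14, 0.17 and -0.10, with a difference of 1.31 (SE 0.13, edgeR adjusted p 5.25e-09) between DU145 and 22Rv1. ABCG1 had effects of 1.15, -0.35 and 2.90, and PC3 exceeded DU145 by 3.25 (SE 0.30, edgeR adjusted p 4.19e-09). ABCA1, with effects of 1.25, -1.05 and -0.43, differed by -2.30 (SE 0.62, edgeR adjusted p 0.00341) between DU145 and 22Rv1. The 22Rv1 effects of ABCA1 and ABCG1 rest on levels near the floor. For SCD the effects were -0.92, -0.18 and -1.12, and for LSS -0.45, -0.49 and -0.71, negative in each line. Not all of the guide comparisons behind them passed: SCD was called lower in 3 of 6, with neither guide in DU145. LSS was called lower in 4 of 6, with neither guide in 22Rv1 (edgeR adjusted p 0.189 and 0.226). Without replicate 3 of 22Rv1 gRNA 1, LSS was called lower there with gRNA 10 (-0.44, edgeR adjusted p 0.000818). It was still not called with gRNA 1 (-0.15, edgeR adjusted p 0.227). SCD was then also called lower with gRNA 1 in 22Rv1 (-0.33, edgeR adjusted p 0.000634).

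Neighbouring genes of the same pathways were read from 3 further lists. Of 17 other sterol genes, 0 rose and 8 fell with gRNA 1 in 22Rv1, and 1 rose and 3 fell with gRNA 10. In DU145, 7 rose and 3 fell with gRNA 2, and 7 rose and 1 fell with gRNA 10. In PC3, 7 rose and 7 fell with gRNA 2, and 4 rose and 12 fell with gRNA 10. The shares called were 47.1% and 23.5% in 22Rv1 (48.5% and 40.6% of all genes), 58.8% and 47.1% in DU145 (34.0% and 40.0%) and 82.4% and 94.1% in PC3 (63.6% and 73.5%). LBR, a sterol reductase of the nuclear envelope, fell by 1.48 and 0.68 in 22Rv1, and SOAT1, which esterifies cholesterol, fell by 1.31 and 0.54 there with gRNA 1 and gRNA 10. In PC3, SOAT1 rose by 0.63 with gRNA 2 (SE 0.06, edgeR adjusted p 1.77e-10) and by 0.75 with gRNA 10 (SE 0.06, edgeR adjusted p 1.62e-12). GGPS1, which makes geranylgeranyl diphosphate, rose there by 0.54 and 0.97. In DU145, ERLIN2 rose by 0.47 with each guide and INSIG2, the second INSIG gene, by 0.36 and 0.39.

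Of 20 other fatty acid genes, 4 rose and 8 fell with gRNA 1 in 22Rv1 and 3 rose and 7 fell with gRNA 10. In DU145, 2 rose and 1 fell with gRNA 2 and 5 rose and 2 fell with gRNA 10. In PC3, 4 rose and 13 fell with gRNA 2 and 9 rose and 9 fell with gRNA 10. The first and the gRNA 10 population had 60% and 50% of the list called in 22Rv1 (48.5% and 40.6% of all genes), 15% and 35% in DU145 (34.0% and 40.0%) and 85% and 90% in PC3 (63.6% and 73.5%). HACD2, a dehydratase of fatty acid elongation, fell by 2.18 and 1.65 in 22Rv1, and ACSL1, which activates fatty acids, fell by 2.19 and 1.60. In PC3, MID1IP1, which activates acetyl-CoA carboxylase, fell by 0.84 with gRNA 2 (SE 0.04, edgeR adjusted p 2.31e-17) and by 0.48 with gRNA 10 (SE 0.04, edgeR adjusted p 4.28e-12), and OXSM, a mitochondrial fatty acid synthase, rose by 0.41 and 0.49. ME1, which supplies NADPH, rose by 0.25 with each guide in DU145, and LPIN1 by 0.23 and 0.45.

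Of 9 other LXR and efflux genes that passed the filter, 2 rose and 0 fell with gRNA 1 in 22Rv1 and 3 rose and 0 fell with gRNA 10. In DU145, 1 rose and 5 fell with gRNA 2 and 1 rose and 4 fell with gRNA 10. In PC3, 4 rose and 4 fell with gRNA 2 and 3 rose and 4 fell with gRNA 10. Called shares of this list were 22.2% and 33.3% in 22Rv1 against 48.5% and 40.6% of all genes, 66.7% and 55.6% in DU145 against 34.0% and 40.0%, and 88.9% and 77.8% in PC3 against 63.6% and 73.5%. CYP27A1, which makes the LXR ligand 27-hydroxycholesterol, had log2 fold changes of -2.54 and -2.47 in DU145, falling from a mean of 10.6 CPM to 1.81 and 1.90 CPM. NR1H3, which encodes LXR alpha, fell by 0.80 with gRNA 2 (SE 0.12, edgeR adjusted p 0.000893) and by 0.77 with gRNA 10 (SE 0.12, edgeR adjusted p 0.000704) there. In PC3, NR1H2, which encodes LXR beta, fell by 0.33 and 0.26, and ABCA7, a lipid transporter related to ABCA1, rose by 0.69 and 0.78.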

How the data were processed

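Total RNA was column-purified from cultured cells and turned into mRNA libraries that keep strand, which were sequenced from both ends (150 bases each) on DNBSEQ, per the labels' protocols. The submitters' processing notes name FastQC, STAR and edgeR and the build hg38, with no role or version. The counting program, the annotation it used and its use of strand are not given in the sources used here. The deposited values are whole raw counts of reads by gene symbol, in 1 table for each cell line whose columns are libraries, per the file headers. Columns were matched to samples by library name, 0 value columns were left unused, and repeated symbols were summed.

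For each line, the 9 libraries were fitted together in edgeR 4.0.16 (R 4.3.3) with group as the only term, TMM factors, filterByExpr (minimum count 10, minimum total 15), robust dispersions and the two-sided quasi-likelihood F test. A gene is called when its Benjamini-Hochberg adjusted p over all genes tested is below 0.05. Differences between lines came from 1 such model of all 27 libraries over 16322 genes. CPM use TMM-scaled library sizes, and CPM per kb the exon union of GENCODE 29. A floor of 3 counts stands for a count of 0 and covers counting error only. Totals of 17958558 to 20650819 counts put this floor near 0.160 CPM. The scripts were tested on simulated data.

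The 33 genes and the lists were chosen with earlier results of these data known. Full values are given for SREBF1, SREBF2 and INSIG1, for up to 5 genes per line called with both guides in 1 direction with the largest smaller change, for up to 2 called in opposite directions, and for the largest change in each guide comparison. Other genes were named after their values were seen. Of each pathway list, up to 2 genes per line called with both guides in 1 direction are named, given a group mean of at least 100 counts. The alternatives were RLE factors, DESeq2 1.42.0, no filter, at least 10 counts in every library, only the groups compared, the replicate number as a block, and leaving out each library; leaving out both libraries that stand apart together was added after the data were seen.

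In some groups the replicate number of a title is not that of the library name, and that of the title was used. Same-numbered libraries were not shown to pair. FADS1 and FADS2 share 4.79% and 4.44% of their exonic bases in antisense, so their reads could mix if strand was not used.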

Additional observations from a re-analysis of the deposited data

Results flagged for a closer look

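The mean change with both RIPK2 guides was tested for differences between lines in the model of all 27 libraries. For 12 of the genes named by rule, 1 such difference is listed with its edgeR adjusted p; other genes also differed, 11, 17 and 14 of the 33 in all between DU145 and 22Rv1, PC3 and 22Rv1, and PC3 and DU145. Between DU145 and 22Rv1 (DU145 minus 22Rv1, log2), the difference was 0.63 for FDFT1 (adjusted p 0.00507), -1.94 for CYP51A1 (adjusted p 0.000201), -0.82 for TM7SF2 (adjusted p 0.000111), 1.31 for ELOVL6 (adjusted p 5.25e-09) and -2.30 for ABCA1 (adjusted p 0.00341). Between PC3 and 22Rv1 (PC3 minus 22Rv1), it was -1.52 for STARD4 (adjusted p 1.31e-05) and 0.57 for FADS2 (adjusted p 0.0249). The FADS2 difference did not pass without 22Rv1 control replicate 1 or 3 or PC3 control replicate 2 (adjusted p 0.0570 to 0.0617). Between PC3 and DU145 (PC3 minus DU145), it was -1.09 for MSMO1 (adjusted p 0.00517), -1.11 for SREBF1 (adjusted p 4.28e-07), -1.25 for INSIG1 (adjusted p 0.0142), -1.16 for FASN (adjusted p 5.41e-05) and 3.25 for ABCG1 (adjusted p 4.19e-09). For each gene the pair of lines shown is 1 of the 3 that were tested, the called pair with the largest difference. The ABCA1 difference rests on 22Rv1 levels near the floor. That of CYP51A1 is uncertain, since 79.4% of its exonic bases are shared with another gene on the same strand. The part of the mitochondrial share of 22Rv1 gRNA 1 replicate 3 in the differences that involve 22Rv1 was not tested.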

How the results depend on the processing

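Of 189 gene values called in a comparison, 145 kept their direction and call in all alternatives that tested the gene, 44 lost the call in at least 1, and 0 reversed. The stricter filter left some low-count genes untested. Of the uncalled values, the 29 of the genes named by rule in the guide comparisons were followed, and 15 gained a call in at least 1 alternative and 9 changed sign. Leaving out 1 library at a time gave, for higher and lower genes, 1 to 14 and 2 to 5 with gRNA 1 in 22Rv1, 2 to 7 and 6 to 16 with gRNA 10, and 2 to 5 and 4 to 18 between its guides. In DU145 the ranges were 2 to 6 and 3 to 16 with gRNA 2, 3 to 10 and 5 to 10 with gRNA 10, and 6 to 12 and 1 to 6 between the guides. In PC3 they were 2 and 28 to 30 with gRNA 2, 8 to 9 and 18 to 20 with gRNA 10, and 17 to 18 and 5 to 8 between the guides. Differences between lines numbered 9 to 15 for DU145 minus 22Rv1, 13 to 25 for PC3 minus 22Rv1 and 12 to 16 for PC3 minus DU145. With both libraries that stand apart left out, they numbered 21, 28 and 21. Fitting only the groups compared gave 1 rise with gRNA 1 in 22Rv1, 7 rises and 16 falls with gRNA 10 in 22Rv1, 4 falls with gRNA 2 and 12 with gRNA 10 in DU145, and 1 lower gene between the DU145 guides. In those 5 fits 38.1%, 57.1%, 23.1%, 66.2% and 27.5% of all genes passed, against 48.5%, 40.6%, 34.0%, 40.0% and 38.8% in the main fit. Without a filter gRNA 1 in 22Rv1 gave 1 rise, with at least 10 counts in every library gRNA 10 in 22Rv1 gave 1 rise, and DESeq2 gave 5 lower genes between the DU145 guides. There 29.8%, 40.0% and 41.0% of all genes passed. The cause was not tested. With the replicate number as a block, 5 genes fell with gRNA 1 in 22Rv1 in place of 3, where 48.7% of all genes passed. Same-numbered libraries correlated by -0.31 to 0.44 in their deviations, and 2, 2 and 4 of the 9 libraries of 22Rv1, DU145 and PC3 correlated best with their own number. Values that changed sign were not called in the main fit. INSIG1 with gRNA 2 in DU145 was called lower after its change of sign, without gRNA 2 replicate 3 (-0.30, edgeR adjusted p 0.0161). Leaving out 1 library at a time gave log2 fold changes from -0.24 to 0.0072 for FASN with gRNA 10 in 22Rv1, from -0.20 to 0.027 for FDFT1 with gRNA 2 in DU145, and from -0.13 to 0.55 for INSIG1 with gRNA 1 in 22Rv1, where the replicate block gave -0.0035. The ranges were -0.30 to 0.23 for INSIG1 with gRNA 2 in DU145, -0.47 to 0.15 for MSMO1 with gRNA 1 in 22Rv1, and -0.078 to 0.089 for SREBF1 with gRNA 1 in 22Rv1, where fitting without a filter gave -0.020. They were -0.15 to 0.022 for SREBF1 with gRNA 10 in 22Rv1, -0.16 to 0.00033 for SREBF2 with gRNA 2 in DU145, and -0.053 to 0.031 for TM7SF2 with gRNA 2 in PC3.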
